A study of Homo sapiens with 10 samples.

Results

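Of the 10 libraries of the series, 5 came from drug-sensitive human melanoma cell lines, and these 5 were compared by the origin of the tumour each line was grown from. WM983A, WM278 and WM902B are lines of primary tumours, and WM983B and WM1617 are lines of metastases. The libraries were chosen by their labelled state and tumour stage, and no measured value was used. The study lists WM983A and WM983B as lines of 1 patient, WM278 and WM1617 as lines of another, and WM902B as a line without a metastatic partner. All 5 lines were untreated and grown in the same medium with 10% foetal bovine serum, so no group carries a treatment. Each line is 1 library, so the spread within a group is the spread between lines, and tumour origin cannot be told apart from whatever else separates those particular lines. The other 5 libraries are labelled as derivatives of the same lines, made resistant by months of growth in encorafenib, an inhibitor of the kinase BRAF, with binimetinib, an inhibitor of the kinase MEK. A library holds the RNA of a whole culture, so fewer cells of one state and less RNA per cell cannot be told apart.

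Melanoma arises from melanocytes, the pigment cells of the skin, and spreads to lymph nodes and distant organs after leaving the primary tumour. Melanoma cells are known to move between a differentiated state, in which the transcription factor MITF drives pigment genes, and an invasive state with low MITF and high AXL, WNT5A and matrix genes. A line of a metastasis may therefore sit anywhere along that range, and the comparison asks which genes separated the metastatic lines from the primary ones all the same.

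The 5 libraries held between 13970608 and 16966008 gene counts (median 14876553), and between 24908 and 25830 genes had at least 1 count. Levels below are read counts scaled to the mean effective library size by the trimmed mean of M-values (TMM), called normalised counts here, and a gene at 3 counts or fewer in a library was treated as at the floor. All 5 libraries carried the melanocyte lineage factor SOX10, at 5109.5 in WM983A, 4807 in WM278, 4814 in WM902B, 4585 in WM983B and 5198 in WM1617. Of the markers of other cell types, 5 of 13 for fibroblasts, 6 of 15 for keratinocytes, 4 of 12 for endothelium and 8 of 15 for leukocytes were at 3 normalised counts or fewer in every library, among them PDPN, KRT1, CDH5, CD3D and TYROBP. Others were not low, with the highest values at 1148 for the fibroblast proteoglycan LUM in WM983B, 862 for the keratin KRT10 in WM278, 804 for the VEGF receptor KDR in WM278 and 1180 for the lysosomal protein CD68 in WM1617. Several genes of the MHC region on chromosome 6 that most nucleated cells use were also listed at 0, TAP1 in all 5 libraries among them, so zeros in that region are given as listed values.

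Lines of 1 patient were not always the most alike. Over the 18043 genes tested, the correlation of log2 levels was highest between WM983A and WM983B (Pearson r = 0.956). Among the 10 pairs of libraries it was lowest between WM278 and WM1617 (r = 0.769), which are also paired as primary and metastasis. These are correlations across genes within pairs of libraries, and genes are not independent. WM1617 was closest to WM902B, the primary line without a partner (r = 0.911), and 23.6% of genes differed at least 2-fold between them, against 37.2% between WM1617 and WM278 and 12.5% between WM983B and WM983A.

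Genes present or missing in exactly 2 lines were counted as well. WM983A and WM983B shared 24 genes at 3 normalised counts or fewer in both and at 50 or more in the other 3 lines, and 10 genes with the reverse pattern. WM902B and WM1617 shared 17 and 22 such genes, and WM278 and WM1617 shared 1 and 7. Among those held in common by WM902B and WM1617 were the DNA repair gene MGMT, at 0.983 in WM983A, 0 in WM278, 441 in WM902B, 0.990 in WM983B and 299 in WM1617, the transcription factor WT1, at 0 in WM983A, 0 in WM278, 285 in WM902B, 0.990 in WM983B and 307 in WM1617, and the neural crest factor FOXD3, at 1102 in WM983A, 53.8 in WM278, 0 in WM902B, 783 in WM983B and 0 in WM1617. WM278 and WM1617 alone expressed the germline antigens SAGE1, at 0 in WM983A, 137 in WM278, 1.01 in WM902B, 0 in WM983B and 183 in WM1617, and MAGEA10, at 1.97 in WM983A, 219 in WM278, 1.01 in WM902B, 0 in WM983B and 1211 in WM1617. Whether the labelled pairing of WM278 with WM1617 holds was not tested, and no test below assumes it except where the patient is named as a block.

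**Figure D1:**
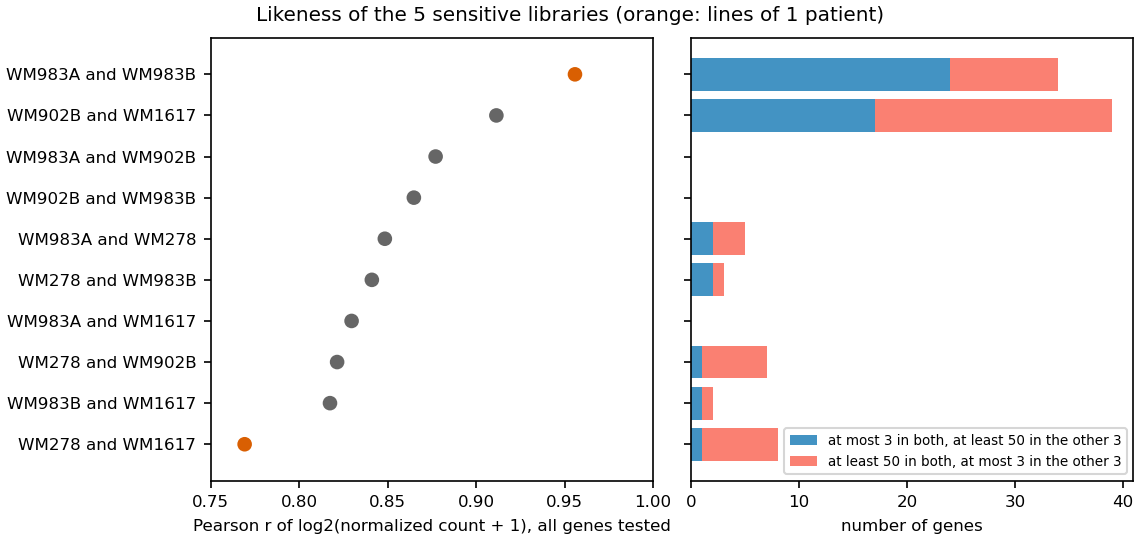
Pearson correlation of log2 normalised counts over 18043 genes for each of the 10 pairs of sensitive libraries, and the number of genes that only the 2 libraries of a pair lacked or only they expressed, with pairs of 1 patient in orange. WM983A with WM983B is highest at 0.956 and WM278 with WM1617 lowest at 0.769.

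A stretch of chromosome 11 nearly without transcripts was common to both WM983 lines. On build GRCh38, 6 neighbouring genes between 102347211 and 103479863, which are expressed in other lines, lay at 3 normalised counts or fewer in WM983B, and 4 of them (MMP8, MMP1, DCUN1D5 and DYNC2H1) formed such a run in WM983A. The inhibitor of apoptosis BIRC2 was at 0 in WM983A, 2256 in WM278, 1294 in WM902B, 0 in WM983B and 720.2 in WM1617. The membrane mucin gene TMEM123 was at 8.85 in WM983A, 4989 in WM278, 2995 in WM902B, 0.990 in WM983B and 3593 in WM1617, and DYNC2H1, a motor subunit of cilia, at 0.983 in WM983A, 514 in WM278, 569 in WM902B, 0.990 in WM983B and 667 in WM1617. Next to BIRC2, its relative BIRC3 was also at 0 in both WM983 lines, but it was at 0 in WM1617 too. The nearest genes tested beyond these were expressed in both lines: YAP1, the effector of Hippo signalling, had 1132 in WM983A and 929 in WM983B, and PDGFD had 179.9 and 71.3. The stretch therefore separated 1 patient's lines from the rest rather than metastatic from primary lines.

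That stretch also bears on the resistant libraries used below. In the library labelled resistant WM983B the genes were low but above their sensitive values, on a scale common to all 10 libraries. BIRC2 was at 8.50 normalised counts, TMEM123 at 45.3, DCUN1D5 at 11.3 and DYNC2H1 at 3.73, against 0 to 1.97 in sensitive WM983B. The library labelled resistant WM983A held 1224 for BIRC2, 5672 for TMEM123, 871 for DCUN1D5 and 273 for DYNC2H1, although sensitive WM983A held 0 to 8.85 for these genes. Of the 24 genes that only the sensitive WM983 lines lacked, 1 was at 3 or fewer and 16 were at 50 or more in the library labelled resistant WM983A, against 9 and 3 in resistant WM983B. Its log2 levels correlated with sensitive WM983A at r = 0.798, which ranked the fourth of 5 sensitive libraries, while the other 4 resistant libraries each correlated best with their own line (r = 0.882 to 0.975). Whether that library derives from WM983A was not tested, and results with resistant libraries are therefore given with and without it.

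No gene separated metastatic from primary lines past the threshold of an adjusted p of at most 0.05 with at least a 2-fold difference. In edgeR's quasi-likelihood test with Benjamini-Hochberg adjustment over 18043 genes, 0 genes passed, and the smallest adjusted p was 1.00. At an unadjusted p of at most 0.05 with at least 2-fold, 254 genes passed (1.41% of those tested), 94 higher (0.521%) and 160 lower (0.887%) in metastatic lines, and 314 had such a p at any fold. DESeq2's Wald test on the same counts passed 25 genes after adjustment, 6 higher and 19 lower. The common biological coefficient of variation was 0.638, which is the spread between lines of 1 origin. An exact permutation test of 3 against 2 libraries has 10 splits and cannot give a two-sided p below 0.2, so none is given for single genes. The unadjusted count ran from 173 without WM278 through 349 without WM902B and 387 without WM983A to 976 without WM983B, and without WM1617 it was 257, of which 55 were among the 254.

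Of the 254 genes, 236 had groups that did not overlap and 245 differed in the same direction in both patient pairs. Both counts use the libraries that gave the p-values, so they describe the selected genes and are no separate support. The share of all genes with 1 direction in both pairs is not given here. Over all genes tested, the groups did not overlap for 2888 (16% of those tested), with the metastatic lines above for 1401 (7.76%) and below for 1487 (8.24%). Among the 254, 155 differed at least 2-fold in both pairs, 41 had both metastatic libraries at 3 counts or fewer, and 3 had all primary libraries there. The genes described next had an unadjusted p of at most 0.05, groups apart and the same direction in both pairs, and were the 12 in each direction whose smaller pair ratio was largest, out of 191 lower and 105 higher. Their adjusted p was 1.00 in edgeR, so they are a description, and passing below always means the unadjusted threshold. Where WM983B or WM1617 is left out, 1 metastatic library remains, its spread is assumed to be that of the primary lines, and passing such a fit is weak support. With the patient as a block, WM902B is alone in its block and adds nothing to the origin difference. Those fits therefore rest on both patient pairs alone.

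PRRX1, a homeobox factor of mesenchymal cells, ranked first among all of these by p. Its normalised count was 287 in WM983A, 312 in WM278, 540.5 in WM902B, 9.90 in WM983B and 3.24 in WM1617. Both metastatic lines lay far below the lowest of the 3 primary lines (log2 fold change -5.82 ± 0.76 SE). Its adjusted p was 1.9e-12 in DESeq2, and it passed the unadjusted threshold whichever library was left out, with log2 fold changes from -5.25 without WM1617 to -6.83 without WM983B. PRRX1 lies on chromosome 1 from 170662728 to 170739421, on the plus strand.

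CLCN4, a chloride and proton exchanger encoded on the X chromosome (10156975 to 10237660, plus strand), was at 107 in WM983A, 528 in WM278, 266 in WM902B, 0.990 in WM983B and 0 in WM1617. Both metastatic lines were at the floor, so the difference was at least 96.7-fold. IGF2BP1, an RNA-binding protein of foetal tissues that is often re-expressed in tumours, was at 28.5 in WM983A, 1008 in WM278, 348 in WM902B, 0 in WM983B and 4.86 in WM1617, with the groups apart but the primary lines spread from 28.5 to 1008 (log2 fold change -7.69 ± 2.16 SE). Without WM983B it did not pass (log2 fold change -6.71), and the value moved to -6.39 without WM278 and to -11.88 without WM1617. CRYBG1, also named AIM1 for absent in melanoma, was at 362 in WM983A, 1606 in WM278, 257 in WM902B, 28.6 in WM983B and 35.6 in WM1617, and both metastatic lines lay below every primary line (log2 fold change -4.52 ± 1.05 SE, and -3.26 without WM278).

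Further genes of this kind were at the floor in both metastatic lines. The zinc finger gene ZNF724 was at 31.2 in WM983A, 29.8 in WM278, 39.9 in WM902B, 0 in WM983B and 0.540 in WM1617, and the difference was at least 10.8-fold. IL22RA1, a receptor subunit for interleukin 22, was at 44.8 in WM983A, 16.1 in WM278, 14.1 in WM902B, 0 in WM983B and 0 in WM1617, at least 8.06-fold lower in metastatic lines. PTN, the growth factor pleiotrophin, was at 13.8 in WM983A, 1018 in WM278, 59.9 in WM902B, 0 in WM983B and 0 in WM1617, at least 117-fold lower against the mean of the primary lines. WM278 alone set most of that mean, and the same held for MT1E, a metallothionein, at 114 in WM983A, 1063 in WM278, 3.03 in WM902B, 1.11 in WM983B and 1.08 in WM1617, for F2RL2, a protease-activated receptor, at 30.5 in WM983A, 1845 in WM278, 4.04 in WM902B, 0 in WM983B and 1.08 in WM1617, and for CD163L1, a scavenger receptor, at 59.2 in WM983A, 1812 in WM278, 4.04 in WM902B, 0.990 in WM983B and 3.24 in WM1617. By the rule of 3 counts, MT1E was at the floor in the primary line WM902B too. For MT1E, F2RL2 and CD163L1 the groups were apart by a few counts only. These 4 genes did not pass without WM983B or without WM1617. ZNF44 was at 16.4 in WM983A, 80.8 in WM278, 6.06 in WM902B, 0 in WM983B and 0 in WM1617, at least 11.1-fold lower, and it did not pass without WM983B.

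**Figure D2:**
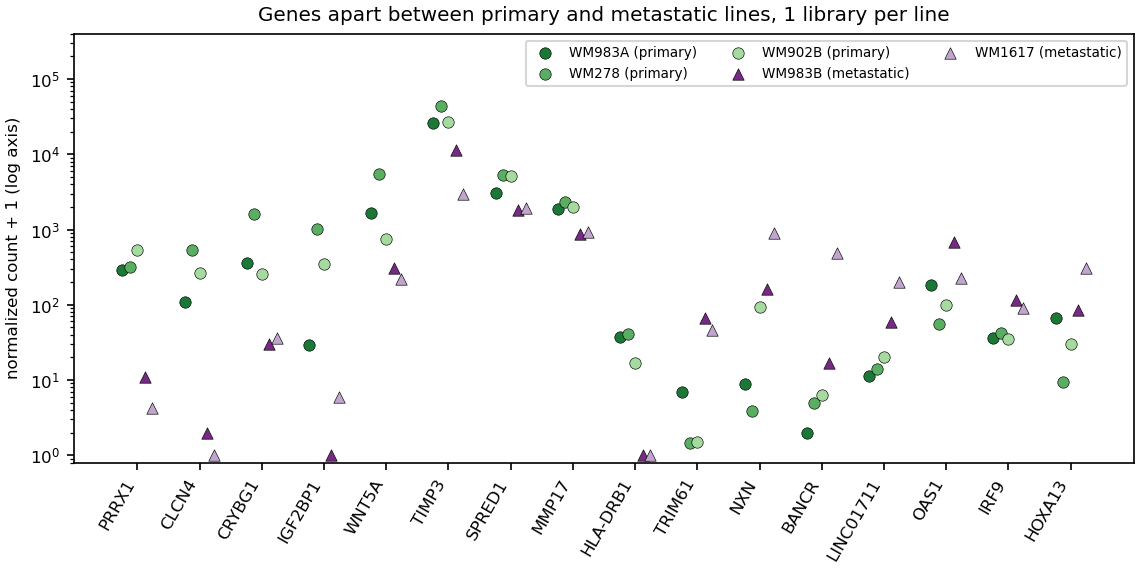
Normalised read counts, with 1 added, on a logarithmic axis for 16 genes in the 5 sensitive libraries, circles for primary and triangles for metastatic lines. PRRX1 and CLCN4 stand at 9.90 or below in both metastatic lines and at 107 or above in all primary lines, and TRIM61 stands at 45.0 or above in the metastatic lines only.

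Other genes were higher in the metastatic lines. TRIM61, a member of the tripartite motif family on chromosome 4 (164954446 to 164977668, minus strand), was at 5.90 in WM983A, 0.473 in WM278, 0.505 in WM902B, 64.9 in WM983B and 45.04 in WM1617. Both metastatic lines lay above every primary line (log2 fold change 4.73 ± 1.48 SE), without WM983B it did not pass (4.44), and without WM983A the value was 8.79. The neighbouring pseudogene TRIM60P14, which starts at 164915565, was at 1.97 in WM983A, 0 in WM278, 0 in WM902B, 21.8 in WM983B and 12.96 in WM1617, so the genes of this stretch were high in the same 2 lines. The long noncoding RNA LINC01711 was at 10.4 in WM983A, 12.8 in WM278, 19.2 in WM902B, 57.3 in WM983B and 197 in WM1617 (log2 fold change 3.13 ± 0.70 SE), and it passed whichever library was left out, with 1.98 without WM1617 and 3.75 without WM983B.

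BANCR, a noncoding RNA first described as BRAF-activated, was at 0.983 in WM983A, 3.96 in WM278, 5.41 in WM902B, 15.8 in WM983B and 490.3 in WM1617. The groups were apart (log2 fold change 6.22 ± 1.54 SE), but the size came from WM1617, and without it the gene did not pass (2.23), while without WM983B the value was 7.16. NXN, the redox regulator nucleoredoxin, was at 7.87 in WM983A, 2.84 in WM278, 91.7 in WM902B, 161 in WM983B and 899.7 in WM1617, and WM902B lay within a factor of 2 of WM983B (log2 fold change 3.95 ± 1.56 SE). It did not pass without WM983A (3.48), WM278 (3.41) or WM1617 (2.22), and passed with 6.61 without WM902B and 4.70 without WM983B. ARHGEF16, a guanine nucleotide exchange factor, was at 5.61 in WM983A, 0 in WM278, 17.2 in WM902B, 47.5 in WM983B and 214 in WM1617, with a log2 fold change of 4.07, 2.61 without WM1617 and 3.92 without WM983A, and it did not pass without either, nor with the patient as a block (5.35). It passed with 5.43 without WM902B and 4.77 without WM983B. ADAMTS14, a procollagen protease, was at 1.54 in WM983A, 0 in WM278, 4.04 in WM902B, 14.9 in WM983B and 34.5 in WM1617, with a log2 fold change of 3.56, 2.82 without WM1617 and 3.55 without WM983A, and it did not pass without either, while without WM902B it passed with 4.51.

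A pair of unnamed loci had 0 counts in every primary line. ENSG00000262967 was at 64.4 normalised counts in WM983B and 113 in WM1617, at least 30.2-fold higher, and ENSG00000280320 was at 52.0 and 49.7, at least 17.3-fold higher. The first overlaps ANKRD40 and the second RASSF3 on the opposite strand, both of which are expressed in every line, and without a stated strand setting in the counting the reads of such partners cannot be told apart. Their values are uncertain for that reason. The WM983B value of ENSG00000280320 is also 1 of those that had been turned into dates and were recovered, as described under the processing. The remaining 3 of the 12 higher genes, ENSG00000237212, ENSG00000264769 and RP11-366M4.11, are noncoding or unnamed as well.

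Next, 21 gene lists were read against this background. Of 352 list genes tested, 10 passed the unadjusted threshold (2.84%, against 1.41% of all genes), 3 higher and 7 lower in metastatic lines, and the smallest adjusted p of any gene was 1.00. The median log2 fold change of all genes tested was 0.00. Groups were apart for 16% of all genes tested, with the metastatic lines above for 7.76% and below for 8.24%. The lists open with 82 best known members, of which 64 had enough counts to test and 0 passed. Only the antigen presentation list held members at the floor in a whole group, and its median was the same with those genes set at their bounds. Genes below that did not pass are shown as well known members or for their spread among lines, and were picked with their values known.

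The pigment list, led by MITF and its melanosome targets, did not separate the origins. Of 24 members tested 0 passed in either direction, 0 had groups apart, and the median log2 fold change was 0.41. Its members varied among lines instead. PAX3, a factor upstream of MITF, was at 556 in WM983A, 452 in WM278, 742 in WM902B, 466 in WM983B and 399 in WM1617. MITF itself, the master factor of melanocytes, was at 5751 in WM983A, 162 in WM278, 6075 in WM902B, 3945 in WM983B and 9483 in WM1617. TYR, the rate-limiting enzyme of melanin synthesis, was at 2057 in WM983A, 8.52 in WM278, 636 in WM902B, 856 in WM983B and 3438 in WM1617. DCT, a further melanin enzyme, was at 8539 in WM983A, 14.2 in WM278, 4862 in WM902B, 6959.98 in WM983B and 10703 in WM1617. WM278, a primary line, was lowest for all 3 of them, and WM1617, the metastatic line given as its partner, was highest.

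The melanosome matrix protein PMEL was at 21033 in WM983A, 66.6 in WM278, 21832 in WM902B, 6878 in WM983B and 30525 in WM1617, and the melanoma antigen MLANA at 534 in WM983A, 11.4 in WM278, 2996 in WM902B, 13.5 in WM983B and 8051 in WM1617. MLANA was thus near the floor in 1 primary and 1 metastatic line. TYRP1, a melanin enzyme, followed another order, at 454 in WM983A, 3.78 in WM278, 11.1 in WM902B, 3696 in WM983B and 15.8 in WM1617, with WM983B highest. The median log2 ratio of the list was -0.62 for WM983B over WM983A and 2.66 for WM1617 over WM278. In the WM983 pair 9 of the 24 members were at least 2-fold lower and 1 higher in the metastatic line, and in the other pair 17 were at least 2-fold higher and 1 lower.

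Some upstream sequences of pigment genes carry the letters that MITF is known to bind in the M-box, TCATGTG. On the other strand these read CACATGA. Both strands were searched over the 250 bases before each start in the RefSeq promoter table for GRCh38.p14, where 18 of the 25 listed symbols were found. The letters were present before 7 of 28 pigment gene starts (25%), against 886 of 35116 starts in the table (2.52%). They were at 0 of 19 starts of the invasive list, for which 16 of 24 symbols were found. The pigment list is led by MITF and its melanosome targets, so its share reflects that choice and is no separate evidence. A further motif, the AP-1 letters TGANTCA, stood before 2 of the 28 pigment starts, 1 of the 19 invasive starts (EGFR) and 2308 starts of the table (6.57%). A match is a description of the letters and not a bound site. The 4 sequences below are those of pigment genes that differed most between WM278 and WM1617 and held the letters, which are in capitals, each printed 5′ to 3′ on the strand of its gene.
TYR, chr11:89177625-89177874, plus strand: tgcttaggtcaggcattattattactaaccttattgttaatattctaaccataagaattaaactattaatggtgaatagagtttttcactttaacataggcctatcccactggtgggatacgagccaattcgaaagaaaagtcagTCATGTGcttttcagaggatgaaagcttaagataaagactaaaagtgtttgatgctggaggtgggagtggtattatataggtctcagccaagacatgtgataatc
DCT, chr13:94479683-94479932, minus strand: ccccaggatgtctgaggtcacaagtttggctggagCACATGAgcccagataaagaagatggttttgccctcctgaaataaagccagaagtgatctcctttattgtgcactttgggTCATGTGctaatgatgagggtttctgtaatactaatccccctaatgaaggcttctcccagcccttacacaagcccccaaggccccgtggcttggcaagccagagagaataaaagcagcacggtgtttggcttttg
GPR143, chrX:9765848-9766097, minus strand: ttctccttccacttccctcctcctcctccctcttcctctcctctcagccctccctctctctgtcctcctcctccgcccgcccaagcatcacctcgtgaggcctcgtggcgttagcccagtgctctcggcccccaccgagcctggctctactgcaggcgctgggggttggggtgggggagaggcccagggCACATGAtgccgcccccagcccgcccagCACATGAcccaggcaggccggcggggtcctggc
SLC24A5, chr15:48120740-48120989, plus strand: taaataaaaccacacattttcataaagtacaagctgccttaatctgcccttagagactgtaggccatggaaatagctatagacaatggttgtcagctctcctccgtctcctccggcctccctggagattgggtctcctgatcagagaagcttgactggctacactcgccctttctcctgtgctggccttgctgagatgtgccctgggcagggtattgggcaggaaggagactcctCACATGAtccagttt
The letters begin 105 bases before the start in TYR, 215 and 135 in DCT, 61 and 33 in GPR143 and 15 in SLC24A5. DCT has a further listed start without them. GPR143, a receptor of the melanosome membrane, was at 1029 in WM983A, 23.7 in WM278, 860.1 in WM902B, 220.1 in WM983B and 1150.2 in WM1617, and SLC24A5, an ion exchanger of pigment cells, at 749 in WM983A, 2.84 in WM278, 774 in WM902B, 223 in WM983B and 1492 in WM1617. Both were again lowest in WM278 and highest in WM1617 with no separation by origin.

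**Figure D3:**
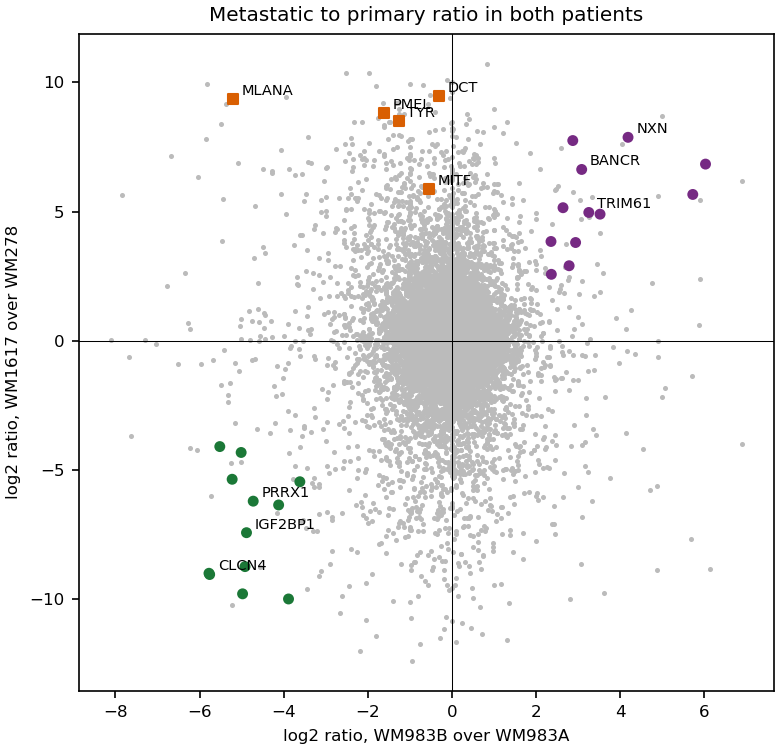
The log2 ratio of WM983B over WM983A (horizontal) against that of WM1617 over WM278 (vertical) for 18043 genes, with the 12 higher and 12 lower named genes in purple and green and 5 pigment genes as orange squares. Ratios spread more widely on the vertical axis, with an SD of 1.96 against 0.834, and the 5 pigment genes lie above 0 on it and below 0 on the horizontal one.

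The genome-wide ratios within the 2 patient pairs had the same inequality. WM983B differed from WM983A by at least 2-fold for 2260 genes (12.5%), 791 higher (4.38%) and 1469 lower (8.14%). WM1617 differed from WM278 for 6711 genes (37.2%), 3419 higher (18.9%) and 3292 lower (18.2%). In both pairs 216 genes were at least 2-fold higher (1.2%) and 416 lower (2.31%), while 766 moved at least 2-fold in opposite directions (4.25%). Across genes the 2 ratios had a Pearson correlation of -0.03 and a Spearman correlation of -0.01.

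Of 22 members of the invasive list tested, 1 passed, lower in the metastatic lines. Of the 22, 5 had groups apart, all 5 with the metastatic lines below, against 8.24% of all genes tested with that order. The median log2 fold change was -1.50, against 0.00 over all genes, but it was -0.03 as a log2 ratio within the WM983 pair. The member that passed was WNT5A, a secreted WNT ligand of the invasive state, at 1646 in WM983A, 5426 in WM278, 753 in WM902B, 306 in WM983B and 217 in WM1617 (log2 fold change -3.32 ± 0.96 SE). It did not pass without WM983B (-3.60) or without WM1617 (-3.09), and without WM278 the value was -2.19. WNT5A lies on chromosome 3 from 55465715 to 55490539, minus strand.

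The other 4 with groups apart did not pass. JUN, an AP-1 subunit, was at 553 in WM983A, 4665 in WM278, 569.7 in WM902B, 349 in WM983B and 79.9 in WM1617 (log2 fold change -3.17). FOSL1, its partner, was at 5884 in WM983A, 6852 in WM278, 4372 in WM902B, 4112 in WM983B and 679.7 in WM1617, THBS1, the matrix protein thrombospondin, at 16519 in WM983A, 41352 in WM278, 16866 in WM902B, 14583 in WM983B and 17.3 in WM1617, and the neural factor POU3F2 at 634 in WM983A, 1176 in WM278, 614 in WM902B, 608 in WM983B and 388 in WM1617. For THBS1 and FOSL1 the low value was that of WM1617, and WM983B lay close to the lowest primary line.

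Much of the list's median came from the pair of WM278 and WM1617. Its median log2 ratio was -4.45 for WM1617 over WM278, with 19 members at least 2-fold lower and 0 higher, and -0.03 for WM983B over WM983A, with 2 lower and 4 higher. AXL, the receptor kinase that marks invasive melanoma, was at 3211 in WM983A, 11059.8 in WM278, 1952 in WM902B, 3674 in WM983B and 122 in WM1617. TGFBI, a matrix protein induced by TGF-beta, was at 23440.4 in WM983A, 27415 in WM278, 261 in WM902B, 23495 in WM983B and 14.00 in WM1617, low in WM902B as well as in WM1617. NGFR, a neural crest receptor, was at 23809 in WM983A, 18.3 in WM278, 9695 in WM902B, 3251 in WM983B and 18.9 in WM1617, lowest in WM278 and WM1617 alike. EGFR was at 52.8 in WM983A, 1892 in WM278, 52.7 in WM902B, 159 in WM983B and 67.1 in WM1617, with WM278 far above the others. For these 4 receptor and matrix genes the groups overlapped and 0 passed.

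**Figure D4:**
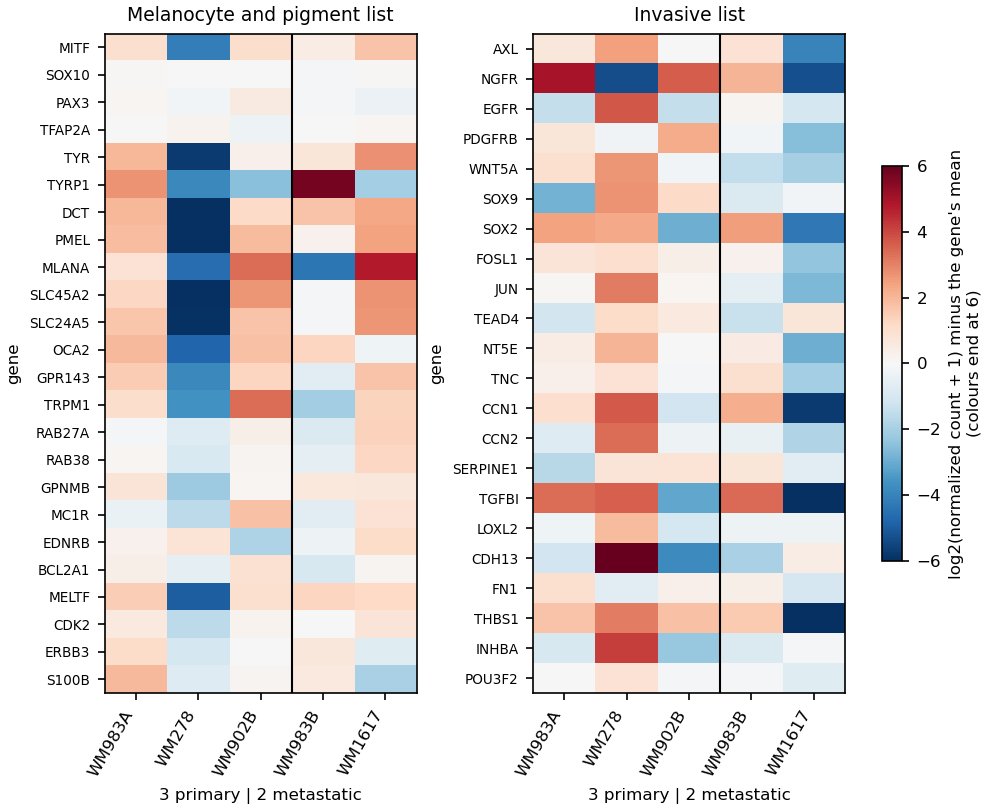
Log2 normalised counts minus each gene's mean over the 5 sensitive libraries, for the members of the pigment and invasive lists, with colours ending at 6 in either direction. WM278 is the low column of the pigment genes, WM1617 is the low column of many invasive genes, and the WM983 lines resemble each other.

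Among proteases and their inhibitors, 2 of 25 members tested passed, both lower in metastatic lines. Groups were apart for 5 of the 25, against 16% of all genes tested. TIMP3, a matrix-bound inhibitor of metalloproteinases encoded on chromosome 22 (32801705 to 32863041, plus strand), was at 25706 in WM983A, 44129 in WM278, 26859 in WM902B, 11558 in WM983B and 2945 in WM1617 (log2 fold change -2.15 ± 0.69 SE). The lowest primary line was more than 2-fold above the higher metastatic line, and TIMP3 did not pass without WM278 (-1.86) or with the patient as a block (-2.53). Its value was -3.46 without WM983B and -1.48 without WM1617. MMP17, a membrane-anchored metalloproteinase, was at 1853 in WM983A, 2298 in WM278, 1969 in WM902B, 884 in WM983B and 920.5 in WM1617 (log2 fold change -1.18 ± 0.27 SE). The lines of each origin were close together, and MMP17 was among the 25 genes that DESeq2 passed (adjusted p 0.00450). MMP2, a gelatinase, was at 592 in WM983A, 868 in WM278, 4343 in WM902B, 215 in WM983B and 426 in WM1617, and MMP14, which activates it, at 10631 in WM983A, 7874 in WM278, 7445 in WM902B, 6567 in WM983B and 5025 in WM1617. Both had the metastatic lines below but did not pass (log2 fold changes -2.59 and -0.58). TIMP2, a further inhibitor, was at 15243 in WM983A, 9069.7 in WM278, 4049 in WM902B, 4199.8 in WM983B and 3042 in WM1617, and WM983B lay just above WM902B (log2 fold change -1.38).

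Of 20 adhesion genes 1 passed. ITGA3, a laminin-binding integrin subunit, was at 6474 in WM983A, 9332 in WM278, 4587 in WM902B, 2625 in WM983B and 404 in WM1617 (log2 fold change -2.17 ± 0.86 SE), and it did not pass without WM983A (-2.19), WM278 (-1.87), WM902B (-2.38) or WM1617 (-1.37), nor with the patient as a block (-2.91), while without WM983B it passed with -4.08. The fibronectin receptor subunit ITGA5, at 3029 in WM983A, 2948 in WM278, 2062 in WM902B, 2043 in WM983B and 1301 in WM1617, and ITGB5, at 4154 in WM983A, 6861 in WM278, 4452 in WM902B, 3364 in WM983B and 888 in WM1617, also had both metastatic lines below but did not pass. MCAM, an adhesion molecule named for its link with melanoma progression, was at 10616 in WM983A, 185 in WM278, 11511 in WM902B, 5393 in WM983B and 11199 in WM1617, lowest in WM278. ALCAM, in the same family, was at 836 in WM983A, 1762 in WM278, 1747 in WM902B, 1106 in WM983B and 3.24 in WM1617, with WM1617 lowest and WM983B among the primary lines. The hyaluronan receptor CD44 was at 9029 in WM983A, 29214 in WM278, 5149.96 in WM902B, 8424 in WM983B and 3222 in WM1617 and did not pass (log2 fold change -1.31). The list's median was -0.57.

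Of 17 collagen and basement membrane genes 0 passed (median -0.81) and 0 had groups apart. COL4A1, a chain of basement membrane collagen, was at 2059 in WM983A, 11252 in WM278, 14.1 in WM902B, 1560.05 in WM983B and 563 in WM1617, lowest in the primary line WM902B. Among 10 regulators and cadherins of the epithelial to mesenchymal switch 0 passed (median -0.30). The repressor ZEB1 was at 0 in WM983A, 579 in WM278, 71.4 in WM902B, 1.98 in WM983B and 349.8 in WM1617, missing from both WM983 lines. Its relative ZEB2 was at 1829.7 in WM983A, 1165 in WM278, 1602 in WM902B, 1558 in WM983B and 977 in WM1617, and N-cadherin, CDH2, at 2074 in WM983A, 2546 in WM278, 824 in WM902B, 2075 in WM983B and 482 in WM1617, overlapping between origins. The repressor SNAI2 was at 1685 in WM983A, 453 in WM278, 2258 in WM902B, 824 in WM983B and 720.1 in WM1617. E-cadherin, CDH1, was at 9.83 in WM983A, 0.946 in WM278, 4.01 in WM902B, 0 in WM983B and 3.24 in WM1617 and was not tested because of its low counts.

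Metastasis suppressors, a list named for genes whose loss promotes spread in models, held 20 members tested and 0 that passed (median -0.07). NME1, the first described, was at 2647 in WM983A, 1690.1 in WM278, 3613 in WM902B, 1755 in WM983B and 2743 in WM1617, and the tetraspanin CD82 at 2174 in WM983A, 1685 in WM278, 1976 in WM902B, 2295 in WM983B and 261 in WM1617. KISS1, the gene of kisspeptin, was listed at 0 in all 5 libraries. CADM1, an adhesion molecule, had both metastatic lines below the primary ones, at 763 in WM983A, 2004 in WM278, 1005 in WM902B, 676 in WM983B and 377 in WM1617 (log2 fold change -1.25), and did not pass. BRMS1L was the 1 member with both metastatic lines above, at 137 in WM983A, 126 in WM278, 163 in WM902B, 225 in WM983B and 221 in WM1617 (log2 fold change 0.65), and did not pass.

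Outputs of the MAPK pathway, which mutant BRAF drives, held 22 members tested and 1 that passed (median -0.33). SPRED1, an inhibitor of RAS signalling encoded on chromosome 15 (38252836 to 38357249, plus strand), was at 3072 in WM983A, 5283 in WM278, 5143 in WM902B, 1810.3 in WM983B and 1931 in WM1617 (log2 fold change -1.27 ± 0.35 SE). Both metastatic lines lay below every primary line. It did not pass without WM983B (-1.23), without WM1617 (-1.31) or with the patient as a block (-1.11). The feedback phosphatase DUSP6, at 2764 in WM983A, 3685 in WM278, 1879 in WM902B, 2414 in WM983B and 3222 in WM1617, and SPRY2, at 1281 in WM983A, 2496 in WM278, 1642 in WM902B, 1179.7 in WM983B and 2153 in WM1617, overlapped between origins, as did CCND1, the cyclin of the G1 phase, at 2736 in WM983A, 18657 in WM278, 44050.3 in WM902B, 2299 in WM983B and 12906 in WM1617. The 25 cell cycle genes had 0 that passed and a median of 0.06, with the proliferation marker MKI67 at 5611 in WM983A, 7178 in WM278, 6213 in WM902B, 6167 in WM983B and 4438 in WM1617. Of 18 tumour suppressors 0 passed (median -0.17). CDKN2A, which is often lost in melanoma, was at 2651 in WM983A, 50.6 in WM278, 6489.7 in WM902B, 3319 in WM983B and 9215 in WM1617, low in WM278 only. CDKN1A, the cell cycle inhibitor p21, was at 388 in WM983A, 9017 in WM278, 582 in WM902B, 465 in WM983B and 270.4 in WM1617, high in WM278 only.

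Of 25 interferon-stimulated genes tested, 2 passed, both higher in metastatic lines, and the median was 0.63. OAS1, an antiviral enzyme that makes oligoadenylates, was at 184 in WM983A, 54.9 in WM278, 99.1 in WM902B, 683 in WM983B and 226 in WM1617 (log2 fold change 2.01 ± 0.71 SE), and it did not pass without WM983B (0.99), WM278 (1.69) or WM902B (1.94), while without WM1617 it passed with 2.60. IRF9, a subunit of the interferon-responsive ISGF3 factor, was at 35.2 in WM983A, 40.7 in WM278, 34.6 in WM902B, 113 in WM983B and 88.7 in WM1617 (log2 fold change 1.45 ± 0.44 SE). IRF9 shares its strand with an overlapping gene, so its value is uncertain, and it did not pass without WM983B (1.25), WM983A (1.43) or WM902B (1.41), nor with the patient as a block (1.39).

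The list followed the WM983 pair. In WM983B over WM983A, 14 of 25 members were at least 2-fold higher and 1 lower (median log2 ratio 1.29), while in WM1617 over WM278, 4 were higher and 10 lower (median -0.36). IFIT1 was at 135 in WM983A, 26.5 in WM278, 176 in WM902B, 675 in WM983B and 45.8 in WM1617, and RSAD2, the antiviral enzyme viperin, was at 8.70 in WM983A, 17.3 in WM278, 2.02 in WM902B, 169 in WM983B and 0.554 in WM1617. WM983B was the highest of the 5 lines for both genes.

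Of 17 antigen presentation genes 2 passed, both lower in metastatic lines (median -0.15). They were the class II chains HLA-DRA, at 16.7 in WM983A, 45.4 in WM278, 12.1 in WM902B, 0.990 in WM983B and 0 in WM1617, at least 7.97-fold lower, and HLA-DRB1, at 36.4 in WM983A, 40.1 in WM278, 16.04 in WM902B, 0 in WM983B and 0 in WM1617, at least 9.93-fold lower. Both lie in the region of chromosome 6 where other genes were listed at 0, so their levels are uncertain. Of the class II genes elsewhere in the genome, the transactivator CIITA was at 966 in WM983A, 676 in WM278, 358 in WM902B, 472 in WM983B and 116 in WM1617 and the invariant chain CD74 at 25550.1 in WM983A, 10847 in WM278, 1217 in WM902B, 7630.2 in WM983B and 45.4 in WM1617. For CIITA and CD74 the groups overlapped, with WM983B within the range of the primary lines and WM1617 lowest. The class I light chain B2M, at 8713 in WM983A, 4987 in WM278, 4087 in WM902B, 6921 in WM983B and 5321 in WM1617, overlapped too.

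Of 15 chemokine and cytokine genes 0 passed (median -0.63). The neutrophil attractant CXCL8 was at 5159 in WM983A, 14639 in WM278, 148 in WM902B, 7285 in WM983B and 13.7 in WM1617, and the monocyte attractant CCL2 at 2029.97 in WM983A, 1632 in WM278, 19.2 in WM902B, 1828 in WM983B and 0 in WM1617. CXCL1, of the same family as CXCL8, was at 2646 in WM983A, 3204 in WM278, 17.3 in WM902B, 2849 in WM983B and 0 in WM1617. WM902B and WM1617 were lowest for all 3. Of 14 cancer-testis antigens, germline genes that tumours re-express, 0 passed (median -0.13). PRAME was at 2.95 in WM983A, 1063 in WM278, 3303 in WM902B, 0.990 in WM983B and 5963 in WM1617, at the floor in both WM983 lines. MAGEA6 was at 409 in WM983A, 2457 in WM278, 534 in WM902B, 0.990 in WM983B and 1611 in WM1617, and MAGEA12 at 224 in WM983A, 1453 in WM278, 2121 in WM902B, 1.98 in WM983B and 1996 in WM1617, both at the floor in WM983B only. MAGEA3 was at 485 in WM983A, 2565 in WM278, 2895 in WM902B, 9.90 in WM983B and 779.6 in WM1617, again lowest in WM983B. In the WM983 pair 10 of the 14 were at least 2-fold lower in the metastatic line and 0 higher, and in the other pair 2 were lower and 6 higher.

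On chromosome X, 8 neighbouring MAGE and CSAG genes between 152708261 and 152769716 were at 3 normalised counts or fewer in WM983B alone. This block holds near-identical copies, so the split of reads among them is uncertain. The block was found by that limit, so the low values of all 8 members in WM983B hold by definition. The other metastatic line, WM1617, expressed each of the 8 at 61.7 or more.

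The 35 HOX genes tested, which keep a record of position along the body axis, held 1 that passed (median -0.51). HOXA13, a gene of distal limbs, was at 66.2 in WM983A, 8.52 in WM278, 29.3 in WM902B, 84.1 in WM983B and 306 in WM1617 (log2 fold change 2.49 ± 0.98 SE), and it did not pass without WM278 (2.03), WM902B (2.40) or WM1617 (1.28), nor with the patient as a block (2.67), and passed with 3.36 without WM983A and 3.13 without WM983B. Hypoxia and glycolysis genes (20 tested, median 0.28) and oxidative metabolism genes (14 tested, median 0.18) held 0 that passed. The angiogenic factor VEGFA was at 1424 in WM983A, 2083 in WM278, 1548 in WM902B, 1569 in WM983B and 1563 in WM1617, and PPARGC1A, a driver of mitochondrial genes, at 466 in WM983A, 46.4 in WM278, 182 in WM902B, 141 in WM983B and 444 in WM1617, both with overlapping groups. WM1617 was the highest line for the glycolytic genes ENO2, at 1150.3 in WM983A, 368 in WM278, 1924 in WM902B, 1056 in WM983B and 9172 in WM1617, and PGK1, at 10823 in WM983A, 10447 in WM278, 13397 in WM902B, 11401 in WM983B and 33155 in WM1617. Of the markers of other cell types, 6 fibroblast, 2 keratinocyte, 2 endothelial and 4 leukocyte genes had enough counts to test and 0 passed. The summed normalised count of the tested fibroblast markers was 372 to 1282 in the primary lines and 199.9 to 1289 in the metastatic ones. For keratinocyte markers it was 528 to 917 and 323 to 550.4, for endothelial markers 58.9 to 82.8 and 21.6 to 70.0, and for leukocyte markers 129 to 644 and 272 to 1267. The sums leave out KDR, which was not tested. They overlapped between the origins, and their part in any result was not tested.

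In the resistant libraries, the comparison by origin was repeated as a test of whether it differed from that in sensitive lines. The interaction of state and origin over 20164 genes passed 0 genes in edgeR (smallest adjusted p 0.671), and 194 at an unadjusted p of at most 0.05 with at least 2-fold (0.962%). DESeq2 passed 10 after adjustment. Without both WM983A libraries edgeR passed 0 after adjustment and 159 before it, and DESeq2 passed 14 after adjustment. The resistant lines are labelled as derived from the sensitive ones, so the values of both states are set side by side and are not treated as independent.

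PRRX1 no longer separated the origins among resistant lines. On the scale of all 10 libraries it was at 10.4 in the library labelled resistant WM983A, 10.6 in WM278, 9.22 in WM902B, 5.66 in WM983B and 14.9 in WM1617, so the origins overlapped (interaction log2 5.85, adjusted p = 0.997 in edgeR). They overlapped without resistant WM983A as well. TIMP3, at 523, 25171, 200.1, 28547 and 4811 in the same order, overlapped with and without that library. WNT5A was at 34.8, 4503, 5563, 2124 and 339, and its overlap rested on the library labelled resistant WM983A, without which both metastatic lines lay below both primary lines, as in the sensitive state.

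With or without that library, further named genes had the same order as in the sensitive lines, PTN, ZNF724 and ENSG00000237212 among them. PTN was at 2.32, 871 and 16.4 in resistant WM983A, WM278 and WM902B and at 0 in both resistant metastatic lines. ZNF724 was at 77.5, 3.71 and 27.2 against 2.53 in WM983B and 1.75 in WM1617. ENSG00000237212 was at 0, 2.89 and 0 against 4.76 and 120. With all resistant libraries, the closest lines of both origins were thus only a few counts apart for these genes. The values of 4 others are given here. CLCN4 was at 62.6, 360.2 and 404 in the resistant primary lines and at 2.83 in WM983B and 1.73 in WM1617. IGF2BP1 was at 1234, 587 and 378 against 14.1 and 9.64, with both metastatic lines again below. TRIM61 was at 0.58, 2.89 and 0.424 against 45.9 and 30.6, and LINC01711 at 0, 0.962 and 1.02 against 24.6 and 254, with both metastatic lines again above. ENSG00000280320 had the opposite order, at 60.3, 48.1 and 32.8 in resistant primary lines and 0 in both resistant metastatic lines (adjusted p of the interaction 0.671 in edgeR, and 1.00 without both WM983A libraries).

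On the 10-library scale, 1379 genes had both sensitive metastatic lines above every sensitive primary line, and in the resistant lines 227 of them (16.5%) had that order again and 47 (3.41%) had the opposite one. Of 1480 genes with the metastatic lines below, 300 (20.3%) were again below and 48 (3.24%) above. Over all genes tested the resistant groups did not overlap for 2776 (15.4%). That share counts both orders together, so the share for a single order is smaller. Without resistant WM983A, which leaves 2 libraries against 2, 405 of the 1379 (29.4%) were again above and 74 (5.37%) below. Of the 1480, 502 (33.9%) were again below and 90 (6.08%) above. Of all genes, 5103 (28.3%) did not overlap, again with both orders counted together.

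**Figure D5:**
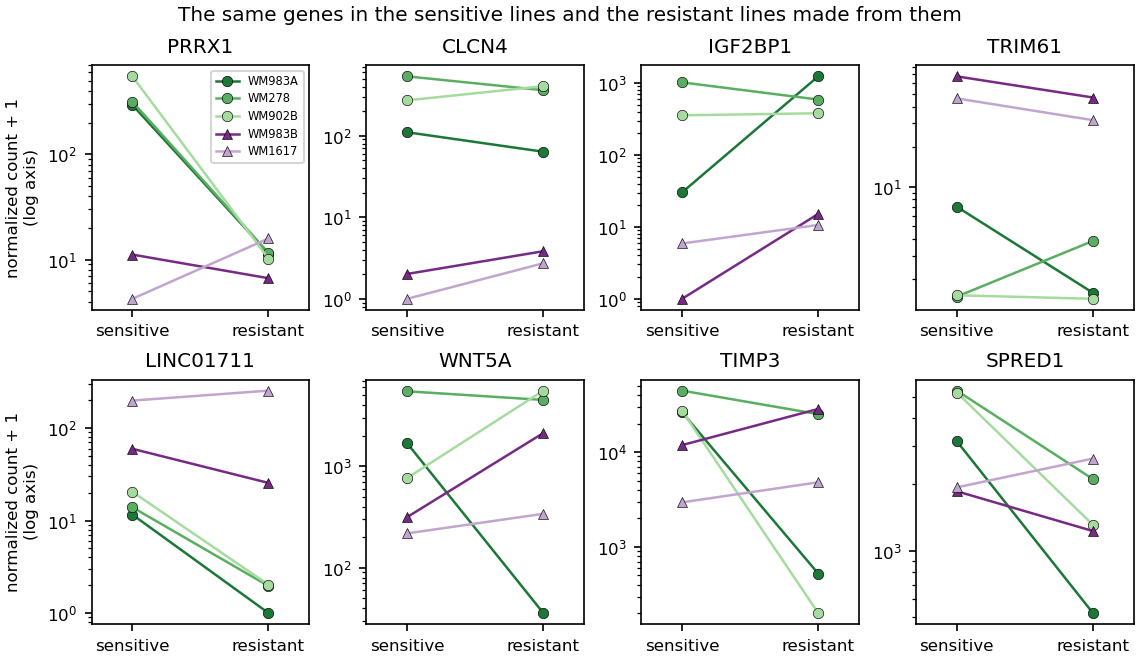
Normalised counts, with 1 added, on a logarithmic axis for 8 genes in the sensitive and the resistant library of each line, joined by a line, circles for primary and triangles for metastatic origin, scaled over all 10 libraries. CLCN4, IGF2BP1, TRIM61 and LINC01711 keep the origins apart in both states, while PRRX1 lies between 5.66 and 14.9 in every resistant library.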

How the data were processed

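Libraries were made from the total RNA of 1 culture per line, after the study enriched mRNA with oligo-dT beads. They were sequenced in 75-cycle single-end runs. As the study and its processing notes give it, the authors aligned reads to GRCh38 with HISAT2 (version not given in the sources used here) and counted genes in StrandNGS. Per the file headers each table gives 1 library's raw and normalised values. The deposited raw values are expected counts (24.1% of values above 0 are whole). The normalised values, from the DESeq algorithm, are by their values the authors' log2 ratios of a resistant library to its sensitive line, and are 0 for every gene in a sensitive table. They were used only to recover the values below, and 0 columns of other samples were found.

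For sensitive WM983B, 455 raw values had been turned into dates. They were recovered from the resistant WM983B counts and the authors' log2 ratios, and all 455 fitted the digits left in the date. Ratios rebuilt from intact values differed from the deposited ones by at most 1.14e-06 on the log2 scale. Counts were rounded to whole numbers. Genes passing filterByExpr by group (18043 of 57955) were tested in edgeR 4.0.16 (R 4.3.3) with TMM scaling and the quasi-likelihood test, 3 primary against 2 metastatic libraries, with Benjamini-Hochberg adjustment over all genes tested. Passing means a p of at most 0.05 with at least a 2-fold difference. The scripts were tested on simulated data. Bounds on folds use a floor of 3 counts in each library (0.177 to 0.215 CPM), and they cover counting error only. Pair ratios are log2 of normalised counts with 1 added and have no test. The interaction of state and origin used all 10 libraries.

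Named genes were the 12 per direction with the largest smaller pair ratio among genes with an unadjusted p of at most 0.05, groups apart and both pairs in 1 direction, then list members that passed and the first 4 of each list, of which some are not reported here. Y-linked genes, XIST and TSIX were left out. The comparison, its gene lists and the rule were chosen with earlier results of these data known. Positions are from GENCODE release 44 for 56911 of 57955 gene IDs. Alternatives were DESeq2 1.42.0, limma 3.58.1 (voom), other scaling and filters, leaving out each library, all 10 libraries in 1 fit, the patient as a block and other added counts. A block for the WM983 pair alone and the results without WM983A for resistant libraries were added after seeing the data. Labels give no replicate numbers, and the pairing of patients comes from the study. Deviations from the group means correlated at 0.42 in the WM983 pair and at -0.11 in the pair of WM278 and WM1617. With 2 metastatic libraries their deviations are mirror images. WM983A with WM1617 was therefore at -0.42 and WM278 with WM983B at 0.11. The highest value, 0.50, was that of WM902B with WM1617, which are not paired. Each library is 1 line, so p-values measure the spread between these lines.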

Additional observations from a re-analysis of the deposited data

Results flagged for a closer look

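For 9 members of the gene lists the metastatic line was at least 4-fold away from its primary partner in both patient pairs, in opposite directions. With 1 library per line the difference between the pairs was not tested. The pigment genes MLANA, GPR143 and TRPM1 had log2 ratios of -5.21, -2.22 and -3.10 for WM983B over WM983A and of 9.34, 5.55 and 5.00 for WM1617 over WM278. CDH3, or P-cadherin, had -2.33 and 4.43 in the same order. The interferon-stimulated genes IFI27, IFI44L, OAS2 and RSAD2 had 3.42, 3.16, 2.17 and 4.13 in the WM983 pair and -3.64, -4.86, -6.05 and -3.56 in the other. The ephrin receptor EPHA4 had 3.75 and -5.30. Over all genes tested, 133 were at least 4-fold lower in WM983B and higher in WM1617, and 56 the other way round. WM278 and WM1617 were the least alike of all 10 pairs of libraries (r = 0.769).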

How the results depend on the processing

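The edgeR count of 0 genes after adjustment held under every edgeR and voom alternative, including the patient as a replicate block, where the smallest adjusted p was 0.982. DESeq2 gave 25 genes after adjustment and 517 before it, and with the patient as a replicate block 70 and 893. The unadjusted count was 254, with 613 when no filter was used (33765 genes tested), 347 with the patient block in edgeR (107 shared with the 254) and 247 with a block for the WM983 pair alone. It ran from 173 to 976 when each library was left out, the highest without WM983B. The 10 list genes became 19 with the patient block, and 10 to 44 when each library was left out. The genes 2-fold higher in both pairs went from 216 to 134 with 5 counts added. The interaction of state and origin gave 319 genes before and 10 after adjustment in DESeq2 (306 and 14 without the WM983A libraries), and 373 before adjustment with the cell line as a replicate block. Of 494 alternative values for 33 named genes, 416 stayed on the same side of the unadjusted threshold, 78 lost it and 0 changed direction, most often without WM983B (13), without WM1617 (13) and with all 10 libraries in the fit (12). All 33 were chosen with an unadjusted p of at most 0.05, so they could only keep or lose it. The 12 genes per direction were also picked for groups apart and 1 direction in both pairs. Their direction could therefore hardly change, and its stability is no separate support. A gene that failed the filter of a fit has no value there. With a filter of at least 10 counts in every library, only 9 of the 33 have a value. Among the 78, F2RL2 and CD163L1 in DESeq2's Wald test had no p at all. In edgeR the patient block ended the unadjusted call of 6 named genes (ARHGEF16, HOXA13, IRF9, ITGA3, SPRED1 and TIMP3) and of no other. WM902B is alone in its block, so the patient block compares the origins within both patient pairs only. The 12 genes per direction were picked by those pair ratios, so their calls in the block are no separate support. The cause of these shifts was not tested. With 1 library per line and 2 metastatic lines, the spread between lines limits every comparison, and at levels of a few counts counting error limits it as well.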

Other observations

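In WM1617 alone, the steroid-metabolising enzymes AKR1C1, AKR1C2 and AKR1C3, neighbours on chromosome 10, were all at 3 normalised counts or fewer. AKR1C1 was at 22.6 in WM983A, 647 in WM278, 70.8 in WM902B, 7.92 in WM983B and 2.71 in WM1617. AKR1C2 was at 12.2 in WM983A, 168 in WM278, 103 in WM902B, 1.98 in WM983B and 0.966 in WM1617. It was thus at the floor in both metastatic lines, and it was among the 25 genes that DESeq2 passed. AKR1C3 was at 1.97 in WM983A, 380 in WM278, 53.5 in WM902B, 2.97 in WM983B and 1.08 in WM1617, low in both WM983 lines too. These genes are near-identical, so the split of reads among them is uncertain.

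Of the genes that only 1 sensitive line lacked (3 normalised counts or fewer there and at least 50 in the other 4), WM278 had 32, WM1617 had 29, WM983B had 12, WM902B had 4 and WM983A had 1. In the resistant library of the same line, 20 of the 32 were again at 3 or fewer for WM278, 16 of the 29 for WM1617 and 4 of the 12 for WM983B. Of the 17 genes that only WM902B and WM1617 lacked, 11 were again at 3 or fewer in resistant WM902B and 16 in resistant WM1617, against 0 in resistant WM278 and 0 in resistant WM983B.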
